A study of Mus musculus with 2 samples.

Results

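The 41 lysosome genes described here encode proteins of the lysosomal membrane, its hydrolases, its lipid-handling proteins and its proton pump. They were taken by symbol from a list that was drawn up with earlier results of these data known. All 41 were found among the 32285 genes of the expression matrix and had at least 1 UMI (unique molecular identifier, 1 counted RNA molecule) in the filtered cells. They were followed in B16F10 cells, a mouse melanoma line, that had been recovered from 3 sources: the bone (knees) of Prf1-/- mice, the lung of Prf1-/- mice and the lung of wild-type (WT) mice. Perforin, the product of Prf1, makes pores in the target cells of cytotoxic lymphocytes, and its loss is a feature of the host mice, not of the melanoma cells. The cells were sorted as GFP-positive, CD45-negative and DAPI-negative, marked with 1 hashtag per source, pooled and sequenced as 1 RNA library and 1 hashtag library. No WT bone group was analysed here, how many mice each source pools is not stated, and knees were digested for 30 min against 20 min for lung tumours, so digestion time and site cannot be told apart.

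Barcodes with at least 1000 genes and at most 15% mitochondrial UMIs were kept, and a barcode took a source where its largest hashtag count was at least 2 times the second. This gave 385 cells from Prf1-/- bone, 1520 from Prf1-/- lung and 1227 from WT lung, with totals of 1299480, 4726709 and 3865546 UMIs and median depths between 2826.5 and 3107 UMIs per cell. A further 242 filtered barcodes were ambiguous by hashtag and 6270 were not listed in the hashtag matrix. Melanoma markers summed to 9592, 12744 and 12462 CPM (UMIs per 1000000 UMIs of the group) in Prf1-/- bone, Prf1-/- lung and WT lung, and none of the 7 was at 0. The T and NK cell list had 0 UMIs in all 3 groups, Csf1r, Adgre1 and Itgam were at 0 in all 3, and the 12 markers of monocytes, macrophages and dendritic cells summed to 4.62, 2.54 and 18.9 CPM. The 8 markers of alveolar and airway epithelium summed to 19.2, 14.0 and 205 CPM, and their part in the results was not tested beyond the fit without cells that hold them. Each source is 1 hashtag group in 1 library, so no comparison has a replicate and none is tested. Intervals are exact 95% intervals and cover counting error only.

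Lysosomes are acidic organelles in which hydrolases break down proteins, glycans and lipids delivered by endocytosis and autophagy, and a proton pump of the membrane, the V-ATPase, keeps their lumen acid. Many lysosomal genes carry the CLEAR element, an extended E-box that is read by TFEB and TFE3, and MITF, the pigment cell regulator of the same family, binds related E-boxes. In pigment cells, lysosomes share part of their machinery with melanosomes, the organelles that make melanin.

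RefSeq start-site windows of the build GRCm38.p6 (the files' mm10 is the same assembly) were found for 35 of the 41 genes in 40 windows. Each was taken as the 250 bases before an annotated start site, which for some genes, such as Cd63, lies inside the gene. The windows were searched on both strands for GTCACGTG, which holds most of the CLEAR element, for CACGTG, the E-box inside it, and for CATGTG, the related M-box core. GTCACGTG was found in 10 of 40 windows (25%), against 1.85% of all 32851 windows of that length, and its 10 genes were Arsa, Cln3, Ctsa, Ctsd, Gla, Glb1, Lamp1, Mcoln1, Naglu and Sgsh. CACGTG, which every GTCACGTG contains, was found in 13 of 40 windows (32.5%) against 6.02% of all windows. CATGTG was found in 5 of 40 windows (12.5%) against 12.3%. The windows for Hgsnat, Laptm4b, Ctsb, Npc1, Asah1 and Atp6v1h were not used here.

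The windows of 5 genes whose levels are followed in the results are printed 5′ to 3′ on the strand of the gene, with CACGTG and CATGTG on either strand in capitals. Lamp1, Ctsd and Ctsa hold GTCACGTG and had lower levels in bone. Grn has no CACGTG and was lower in bone, and Ctsz has neither motif and was higher there. Other members went otherwise. Naglu holds GTCACGTG and had a bone over Prf1-/- lung ratio of 1.08 (0.829 to 1.38). Gpnmb has no match and had a ratio of 0.729, as Lamp1 did. Positions count back from the start site of the window, with -1 the base before it, and name the first base of a motif. Lamp1 (chr8:13158911-13159160, plus strand) has CACGTG at -61, -45, -28 and -15, which is more than any other window of these genes. Ctsd (chr7:142387828-142388077, minus strand) has it at -245 and -98, and Ctsa (chr2:164833523-164833772, plus strand) at -12 in the second of its start windows. Grn (chr11:102430257-102430506, plus strand) has the reverse complement of CATGTG at -210, and Ctsz (chr2:174439040-174439289, minus strand) has no match. A match is a description of the letters and does not show that a factor binds there.
Lamp1: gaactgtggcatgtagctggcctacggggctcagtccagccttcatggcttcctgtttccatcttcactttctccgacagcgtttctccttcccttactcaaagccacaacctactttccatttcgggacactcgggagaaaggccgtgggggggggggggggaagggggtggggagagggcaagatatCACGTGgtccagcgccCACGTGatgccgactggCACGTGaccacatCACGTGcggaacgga
Ctsd: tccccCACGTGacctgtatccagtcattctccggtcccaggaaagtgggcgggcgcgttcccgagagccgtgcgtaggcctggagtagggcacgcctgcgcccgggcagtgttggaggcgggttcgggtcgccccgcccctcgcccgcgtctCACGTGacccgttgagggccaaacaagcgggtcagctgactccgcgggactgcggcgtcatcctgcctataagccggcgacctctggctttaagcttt
Ctsa: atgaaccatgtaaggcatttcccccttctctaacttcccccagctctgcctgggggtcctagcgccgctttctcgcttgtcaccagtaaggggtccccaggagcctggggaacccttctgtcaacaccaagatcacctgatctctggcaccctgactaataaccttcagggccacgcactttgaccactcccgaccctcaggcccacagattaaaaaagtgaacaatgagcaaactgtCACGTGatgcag
Grn: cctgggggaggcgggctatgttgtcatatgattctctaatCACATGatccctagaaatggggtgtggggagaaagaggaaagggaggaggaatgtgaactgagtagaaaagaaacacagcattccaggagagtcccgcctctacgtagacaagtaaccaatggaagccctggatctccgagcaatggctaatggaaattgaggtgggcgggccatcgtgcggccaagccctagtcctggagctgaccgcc
Ctsz: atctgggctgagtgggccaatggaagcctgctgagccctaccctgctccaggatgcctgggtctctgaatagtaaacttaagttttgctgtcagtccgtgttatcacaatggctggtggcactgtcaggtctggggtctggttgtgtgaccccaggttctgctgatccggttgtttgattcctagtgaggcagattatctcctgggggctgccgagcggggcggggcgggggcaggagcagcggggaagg

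Summed over the 41, the lysosome genes took a smaller share of the RNA in cells from Prf1-/- bone, and nearly equal shares in both lung groups. Their UMIs summed to 9365 CPM in Prf1-/- bone, 10232 CPM in Prf1-/- lung and 10221 CPM in WT lung. The ratio of the sums was 0.915 (0.897 to 0.934) for Prf1-/- bone over Prf1-/- lung and 1.00 (0.988 to 1.01) for Prf1-/- lung over WT lung. Both ratios use the Prf1-/- lung cells, so they are not independent. The lower sum in bone was not shared by all roles. Bone over Prf1-/- lung ratios of sums were 0.607 for Grn alone, 0.827 for the proton pump and 0.883 for membrane proteins. They were 0.980 for peptidases, 0.987 for glycosidases, 1.03 for lipid handling and 1.60 for sulfated glycans and sulfatide. Single genes weigh on the first and last of these. Ctsz was at 988 CPM in Prf1-/- bone and 712 CPM in Prf1-/- lung, and Hgsnat at 145 and 48.2 CPM. Of the 6 peptidases, 5 had log2 ratios below 0 and 1, Ctsz, above, with a median of -0.45. The largest falls in CPM from Prf1-/- lung to bone were those of Gpnmb (1426 to 1039) and Atp6v0c (1643 to 1326). Fewer UMIs of a group in a sum can come from fewer cells with the RNA or from less RNA per cell, which sums do not tell apart. Per cell, after each cell had been thinned to 1500 UMIs, the 41 genes had a median of 14 UMIs in Prf1-/- bone (quartiles 11 and 18), 15 in Prf1-/- lung (12 and 19) and 15 in WT lung (12 and 19). The cells of the 3 sources overlapped over nearly their whole range, with 5th to 95th percentiles of 8 to 23 UMIs in Prf1-/- bone and of 8 to 25 UMIs in Prf1-/- lung and in WT lung. This thinning left out 1 cell of Prf1-/- lung. The standard deviation between cells was 4.74 UMIs in Prf1-/- bone, 5.27 in Prf1-/- lung and 5.51 in WT lung. Poisson counting alone would give 3.81, 3.96 and 3.95, so the intervals of the sums leave out some spread between cells.

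**Figure D1:**
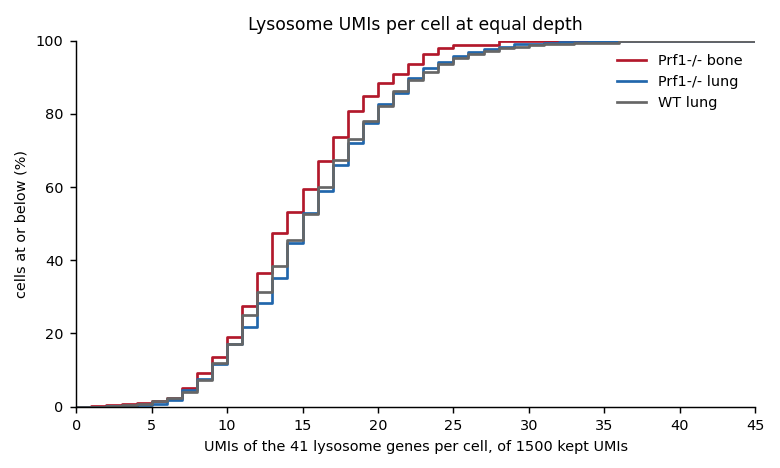
Cumulative share of cells (vertical axis, percent) at or below a number of UMIs of the 41 lysosome genes per cell (horizontal axis), after thinning each cell to 1500 UMIs, for Prf1-/- bone, Prf1-/- lung and WT lung. The bone curve lies to the left of the lung curves, with medians of 14, 15 and 15 UMIs, and the curves cover much the same range.

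A gene was counted as measured in a comparison where its mean over both groups was at least 10 CPM, which left 35 of the 41 genes between sources. The other 6 were Mcoln1, the lysosomal calcium channel mucolipin, Cln3, a membrane protein, the glycosidases Gla and Manba, and Sgsh and Ids, which remove sulfate groups from glycans. Calls of higher or lower need a ratio of at least 1.5, or of at most 0.667, and an interval without 1. Counts come from the 3′ ends of transcripts, so levels do not scale with transcript length.

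Between Prf1-/- bone and Prf1-/- lung, 2 of the 35 measured genes rose, Hgsnat and Laptm4b, and 2 fell, Tpp1 and Grn. Over all 7695 measured genes, 2.64% were called higher and 4.85% lower, so 2 in each direction is close to that background. The median log2 ratio of the 35 genes was -0.21 (1 CPM added), against -0.03 over all measured genes. It was below 0 for 23 of 35 genes (65.7%), against 53.9% of all measured genes. The counting interval lay below 1 for 9 genes and above 1 for 4. No share of such intervals over all measured genes was set beside these counts, and abundant genes have narrow intervals. In Prf1-/- lung over WT lung, 0 of 35 genes were called in either direction, where 0.684% of 7748 measured genes were higher and 1.07% lower, and the median was -0.05 against 0.00 over all genes. In Prf1-/- bone over WT lung, which differ in both site and host, 2 of 35 genes were higher (Hgsnat and Laptm4b) and 3 lower (Tpp1, Grn and Scarb2), where 2.28% of 7707 genes were higher and 5.29% lower. In that comparison 27 of 35 log2 ratios (77.1%) were below 0, against 53.8% of all 7707 measured genes. The interval lay below 1 for 13 genes and above 1 for 4, again without a share over all genes. No test stands behind these counts, since each source is 1 group of cells.

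**Figure D2:**
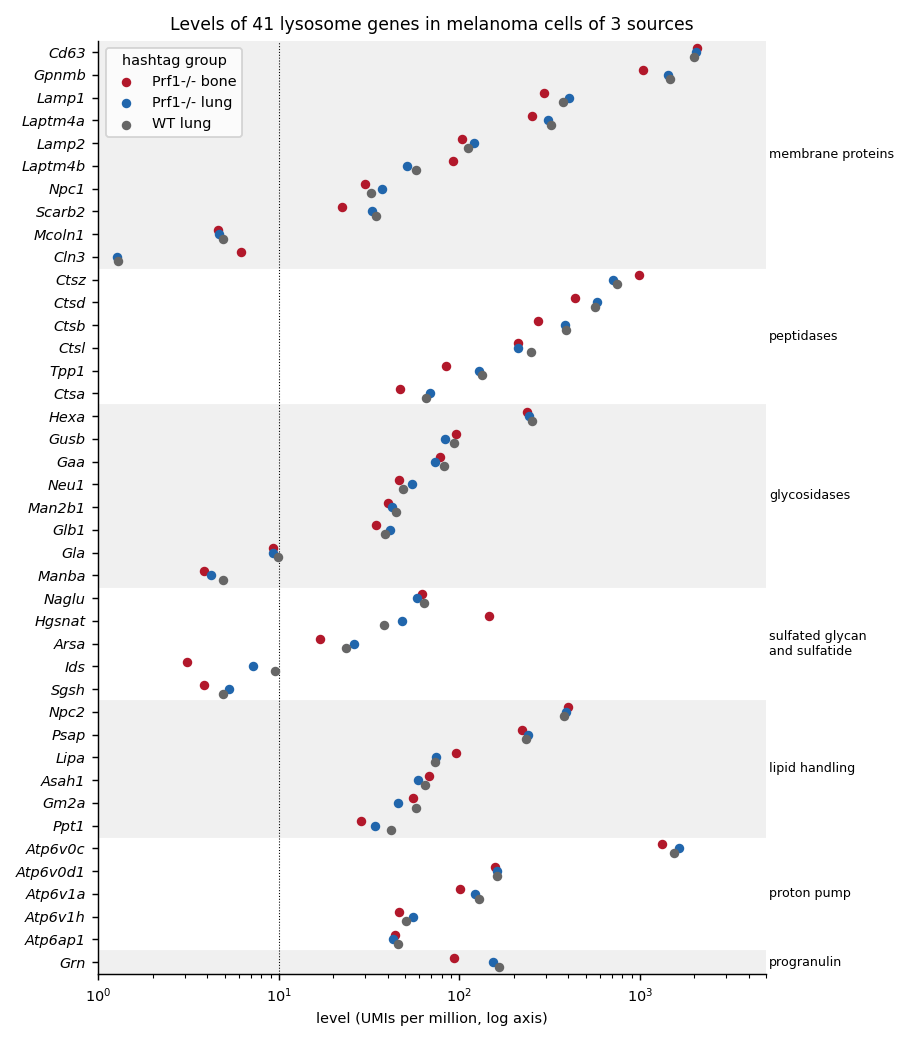
Level of each of the 41 lysosome genes (horizontal log axis, CPM) in cells from Prf1-/- bone, Prf1-/- lung and WT lung, with genes grouped by role and ordered by level. Both lung groups lie close together for most genes, while Hgsnat and Laptm4b in bone lie to the right and Grn and Tpp1 to the left; the dotted line marks 10 CPM, and 6 genes lie below it.

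Among the membrane proteins, the most abundant was Cd63, a tetraspanin of late endosomes and lysosomes that melanosomes also carry. It was at 2069 CPM in Prf1-/- bone, 2046 CPM in Prf1-/- lung and 1998 CPM in WT lung, with a ratio of bone to Prf1-/- lung of 1.01 (0.968 to 1.06). Gpnmb, a glycoprotein of melanosomes and lysosomes, was at 1039 CPM in Prf1-/- bone, 1426 CPM in Prf1-/- lung and 1475 CPM in WT lung. Its bone over lung ratio was 0.729 (0.687 to 0.773), short of the 1.5-fold rule. Lamp1, which with Lamp2 makes up much of the coat that lines the lysosomal membrane, was at 296 CPM in Prf1-/- bone, 406 CPM in Prf1-/- lung and 376 CPM in WT lung, a bone over lung ratio of 0.729 (0.651 to 0.813). For both Gpnmb and Lamp1 the bone group was the low one, and for Cd63 the 3 groups lay together. Laptm4b, a transmembrane protein of late endosomes and lysosomes (chromosome 15, 34238026 to 34284295), went the other way. It had 120 UMIs (92.3 CPM) in Prf1-/- bone, against 242 UMIs (51.2 CPM) in Prf1-/- lung and 222 UMIs (57.4 CPM) in WT lung. Its ratio of bone to Prf1-/- lung was 1.80 (1.44 to 2.25), and of bone to WT lung 1.61 (1.28 to 2.02). Its relative Laptm4a was at 253, 309 and 320 CPM in Prf1-/- bone, Prf1-/- lung and WT lung, so the 2 Laptm4 genes lay on opposite sides of 1. Lamp2, Scarb2, which carries glucocerebrosidase to the lysosome, and Npc1, the cholesterol exporter, had ratios of bone to Prf1-/- lung between 0.676 and 0.861 with intervals that held 1. Against WT lung, Scarb2 was lower in Prf1-/- bone, at 22.3 against 34.7 CPM (0.644, 0.415 to 0.967).

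The peptidases were split in the same manner. Ctsz, cathepsin Z, a carboxypeptidase, was at 988 CPM in Prf1-/- bone, 712 CPM in Prf1-/- lung and 744 CPM in WT lung, and its ratio of bone to Prf1-/- lung was 1.39 (1.30 to 1.48). Ctsd, cathepsin D, the main aspartic protease of lysosomes, was at 438, 575 and 564 CPM in Prf1-/- bone, Prf1-/- lung and WT lung, a bone over lung ratio of 0.761 (0.694 to 0.834). Ctsb, cathepsin B, a cysteine protease, was at 272, 385 and 391 CPM in the same groups, a ratio of 0.707 (0.629 to 0.792). Bone was thus high for cathepsin Z and low for cathepsins D and B, with both lung groups side by side each time. Tpp1, tripeptidyl peptidase (chromosome 7, 105744811 to 105752282), fell to 110 UMIs (84.6 CPM) in Prf1-/- bone, against 605 UMIs (128 CPM) in Prf1-/- lung and 517 UMIs (134 CPM) in WT lung. Its ratio of bone to WT lung was 0.633 (0.510 to 0.779). Its ratio of bone to Prf1-/- lung was 0.661 (0.535 to 0.812), just past the rule, and Tpp1 missed the rule under 7 of the alternatives run. Ctsa, the protective protein of sialidase and galactosidase, had a ratio of 0.683 (0.511 to 0.900), just short of the rule and not called. Ctsl had 0.989 (0.862 to 1.13). In Prf1-/- lung over WT lung Ctsl was at 212 against 249 CPM, a ratio of 0.854 (0.781 to 0.933).

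The glycosidases did not pass the rule in either source comparison. Hexa, a subunit of hexosaminidase, was at 236, 243 and 254 CPM in Prf1-/- bone, Prf1-/- lung and WT lung. Gusb, which cuts glucuronic acid from glycans, was at 95.4, 82.9 and 92.9 CPM, and Gaa, which degrades glycogen, at 77.7, 72.8 and 81.7 CPM. The 6 measured glycosidases had bone over lung ratios from 0.844 for Glb1 to 1.15 for Gusb, with every interval holding 1, and summed to 543 CPM in Prf1-/- bone and 550 CPM in Prf1-/- lung.

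Hgsnat had the most extreme bone over lung ratio of the measured lysosome genes. It encodes the membrane acetyltransferase that adds an acetyl group to heparan sulfate during its breakdown in the lysosome (chromosome 8, 25944459 to 25976744). It had 189 UMIs (145 CPM) in Prf1-/- bone, against 228 UMIs (48.2 CPM) in Prf1-/- lung and 148 UMIs (38.3 CPM) in WT lung. The ratio of bone to Prf1-/- lung was 3.02 (2.47 to 3.67) and of bone to WT lung 3.80 (3.05 to 4.74), while Prf1-/- lung over WT lung was 1.26 (1.02 to 1.56). The UMIs in bone were spread over 133 cells, and the cell with the most held 3.70% of them. Of the other 4 genes for sulfated glycans and sulfatide, the measured ones, Naglu and Arsa, were not called higher. Naglu, which acts in the same chain after Hgsnat, was at 62.3, 58.0 and 63.9 CPM in Prf1-/- bone, Prf1-/- lung and WT lung, a bone over lung ratio of 1.08 (0.829 to 1.38). Arsa, which removes sulfate from sulfatide, was at 16.9, 26.0 and 23.5 CPM, a ratio of 0.651 (0.393 to 1.03). Sgsh, which acts just before Hgsnat, had 5 UMIs in bone and Ids had 4, too few to place them.

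The lipid-handling genes lay close to 1. Npc2, which hands cholesterol to Npc1, was at 398, 392 and 378 CPM in Prf1-/- bone, Prf1-/- lung and WT lung. Psap, the precursor of the saposins, was at 222, 239 and 234 CPM, and Lipa, the acid lipase, at 95.4, 74.3 and 73.7 CPM. Lipa was the only gene of the 6 whose bone over lung interval left out 1, with a ratio of 1.29 (1.04 to 1.58). Gm2a, Asah1 and Ppt1, which act on gangliosides, ceramide and fatty-acylated proteins, had ratios from 0.841 to 1.22 with intervals that held 1. In Prf1-/- lung over WT lung, Gm2a was at 45.5 against 57.7 CPM, a ratio of 0.788 (0.651 to 0.955).

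Of the proton pump genes, Atp6v0c, the ring-forming subunit of the membrane part, was at 1326 CPM in Prf1-/- bone, 1643 CPM in Prf1-/- lung and 1546 CPM in WT lung. Its ratio of bone to Prf1-/- lung was 0.807 (0.766 to 0.850), and of Prf1-/- lung to WT lung 1.06 (1.03 to 1.10). Atp6v0d1, another subunit of the membrane part, was at 157, 161 and 161 CPM, which sets no group apart. Atp6v1a, Atp6v1h and the accessory gene Atp6ap1 had bone over lung ratios of 0.827, 0.833 and 1.03. Grn encodes progranulin, a secreted protein that is taken up and cut into granulins in the lysosome (chromosome 11, 102430507 to 102436809). It fell to 121 UMIs (93.1 CPM) in Prf1-/- bone, against 725 UMIs (153 CPM) in Prf1-/- lung and 638 UMIs (165 CPM) in WT lung. Its ratio of bone to Prf1-/- lung was 0.607 (0.497 to 0.737) and of bone to WT lung 0.564 (0.461 to 0.686).

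**Figure D3:**
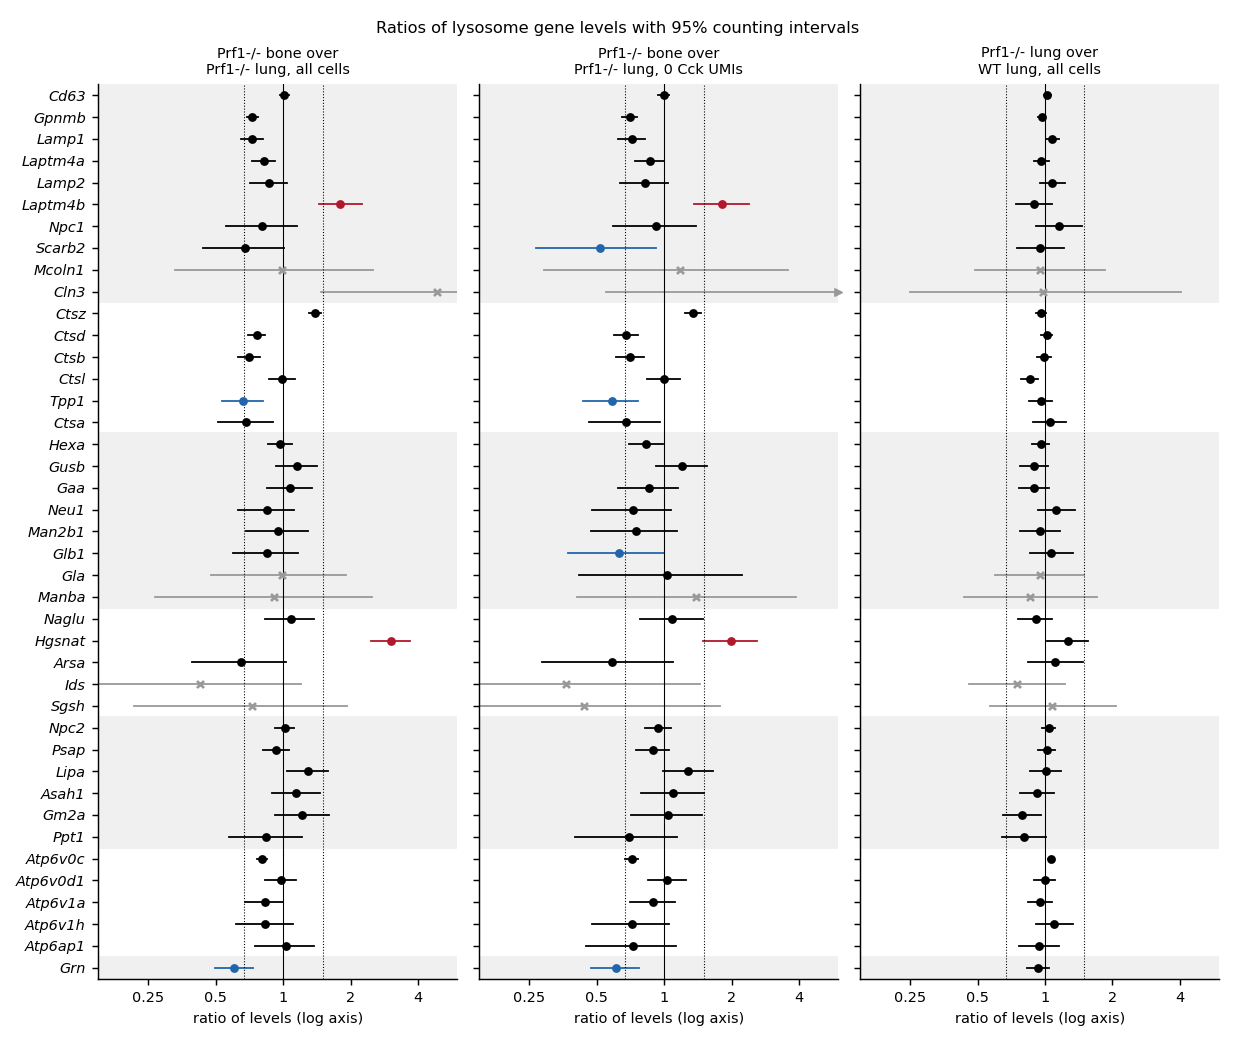
Ratio of levels (horizontal log axis) with 95% counting intervals for each lysosome gene, for Prf1-/- bone over Prf1-/- lung in all cells and in cells with 0 Cck UMIs, and for Prf1-/- lung over WT lung. Red genes are called higher, blue genes lower, grey crosses are under 10 CPM, dotted lines mark 1.5-fold, and intervals are cut at the panel edges; Cln3 in the middle panel lies past the right edge at 10.6, from 2 against 1 UMIs.

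Cells with many Cck UMIs were unevenly spread over the sources. Cck encodes the peptide hormone cholecystokinin, and 97 of 385 cells from Prf1-/- bone (25.2%, 20.9 to 29.8) held at least 10 Cck UMIs, against 38 of 1520 cells (2.50%, 1.78 to 3.42) from Prf1-/- lung and 24 of 1227 cells (1.96%, 1.26 to 2.90) from WT lung. The bone comparison was therefore repeated in cells with 0 Cck UMIs, 236 from Prf1-/- bone and 1340 from Prf1-/- lung. In these cells the 41 genes summed to 8889 CPM in Prf1-/- bone and 10250 CPM in Prf1-/- lung, a ratio of 0.867 (0.845 to 0.890). Of 36 measured genes 2 were higher and 4 lower, beside 2.50% higher and 5.29% lower of 7682 genes. Hgsnat was at 92.6 CPM in Prf1-/- bone against 46.9 CPM in Prf1-/- lung, a ratio of 1.98 (1.49 to 2.60). Laptm4b was at 88.8 against 48.8 CPM (1.82, 1.36 to 2.40). Tpp1 (0.584, 0.436 to 0.769) and Grn (0.608, 0.471 to 0.774) were again called lower, beside Scarb2 at 16.7 against 32.3 CPM (0.518, 0.269 to 0.916) and Glb1 at 25.7 against 41.1 CPM (0.627, 0.373 to 0.999). The called source differences of Hgsnat, Laptm4b, Tpp1 and Grn were thus also called among cells without Cck UMIs, with a smaller ratio for Hgsnat.

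Within the Cck-high cells, those from Prf1-/- bone held 90 Hgsnat UMIs (273 CPM) and those from Prf1-/- lung 7 UMIs (54.1 CPM), a ratio of 5.04 (2.35 to 12.9). In these cells 1 of 37 measured genes was called higher, Hgsnat, and 2 lower, Laptm4a (0.666, 0.464 to 0.965) and Ctsa (0.364, 0.157 to 0.835), where 1.43% of 7490 genes were higher and 2.47% lower. The Laptm4a call rests on 85 UMIs in bone and 50 in lung, and the Ctsa call on 13 and 14. Laptm4b (1.33, 0.644 to 3.02), Tpp1 (0.762, 0.420 to 1.43) and Grn (1.07, 0.521 to 2.36) were not called in these cells, also on few UMIs. The sums of the 41 genes lay close together in these cells, at 10456 CPM in Prf1-/- bone and 10471 CPM in Prf1-/- lung once Cck was taken out of the totals, a ratio of 0.999 (0.938 to 1.06).

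Over all filtered barcodes, whatever their hashtag, 461 Cck-high cells were set against 8100 cells with 0 Cck UMIs. The 41 genes summed to 10523 CPM in Cck-high cells and 10239 CPM in Cck-zero cells, with Cck left out of the totals, a ratio of 1.03 (1.01 to 1.04). Hgsnat was the 1 gene of 35 called higher, where 2.92% of 7703 measured genes were, and 0 were lower, where 4.26% were. It had 259 UMIs (180 CPM) in Cck-high cells and 1090 UMIs (48.3 CPM) in Cck-zero cells, a ratio of 3.72 (3.24 to 4.26). The median log2 ratio over the 35 genes was 0.04, against -0.03 over all measured genes. The interval lay above 1 for 11 genes and below 1 for 7, with no share over all genes set beside these counts. Ctsz was at 990 CPM in Cck-high cells and 735 CPM in Cck-zero cells (1.35, 1.28 to 1.42), Laptm4b at 79.8 and 57.2 CPM (1.40, 1.14 to 1.69), and Neu1, the sialidase, at 72.1 and 51.9 CPM (1.39, 1.13 to 1.70). Ctsb was at 266 CPM in Cck-high cells and 374 CPM in Cck-zero cells (0.710, 0.639 to 0.787), Gpnmb at 1143 and 1428 CPM (0.801, 0.762 to 0.841), and Grn at 108 and 146 CPM (0.739, 0.625 to 0.868). The mitotic list was at 824 CPM in Cck-high cells and 1147 CPM in Cck-zero cells, and in cells without a mitotic UMI the Hgsnat ratio was 3.23. Cln3, under the level filter, had 11 UMIs in Cck-high cells and 25 in Cck-zero cells, a ratio of 6.89 (3.06 to 14.5).

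Hgsnat also followed the Cck count in steps. It was at 48.3 CPM (45.5 to 51.3) in cells with 0 Cck UMIs, 67.9 CPM (58.4 to 78.6) with 1 to 4, 104 CPM (79.8 to 132) with 5 to 9, 129 CPM (97.3 to 167) with 10 to 19 and 202 CPM (175 to 231) with 20 or more. Each step was higher than the one before, and of neighbouring steps the intervals overlapped only between 5 to 9 and 10 to 19 Cck UMIs. Ctsz took the same order with a smaller span, 735, 803, 850, 886 and 1035 CPM. Ctsb was at 374, 337, 278, 285 and 257 CPM, highest in cells with 0 Cck UMIs. These steps mix the sources, and the share of bone cells differs between them.

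**Figure D4:**
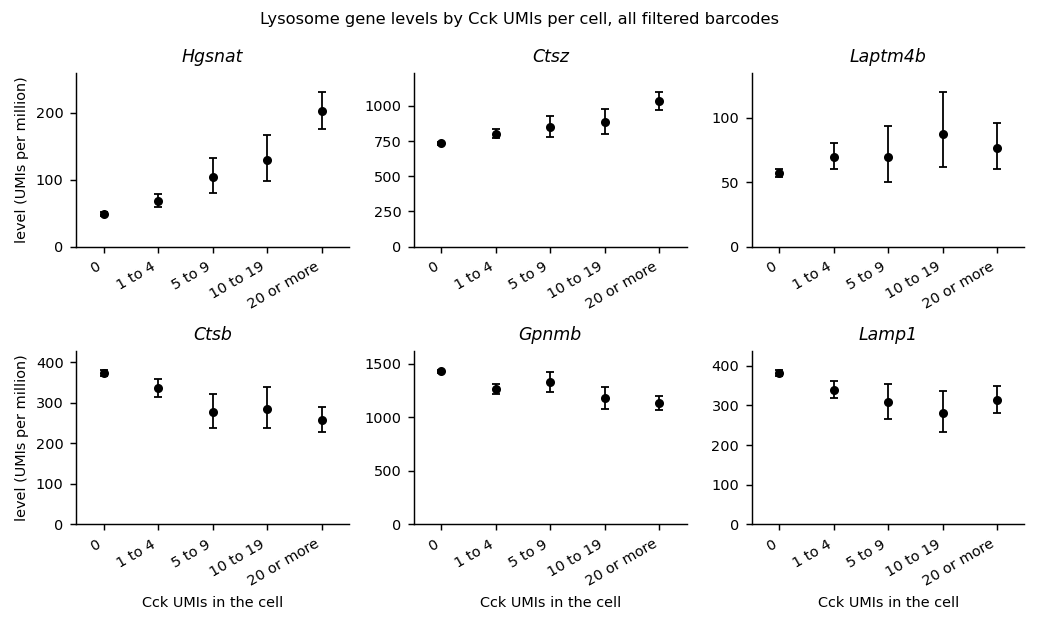
Level in CPM (vertical axis, from 0) of 6 lysosome genes in all filtered barcodes, by the number of Cck UMIs in the cell (horizontal axis, low to high), with exact 95% Poisson intervals. Hgsnat is at 48.3 CPM in cells with 0 Cck UMIs and at 202 CPM in cells with 20 or more, Ctsz takes the same order, and Ctsb, Gpnmb and Lamp1 are highest in cells with 0.

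Split by source, Hgsnat was high in the Cck-high cells of bone and of the unlisted barcodes, while those of the lung groups held few UMIs of it. Within Prf1-/- bone, Hgsnat was at 273 CPM in Cck-high cells and 92.6 CPM in Cck-zero cells, a ratio of 2.94 (2.13 to 4.07). Among barcodes not listed in the hashtag matrix it was at 187 CPM in 282 Cck-high cells and 49.3 CPM in 5272 Cck-zero cells, a ratio of 3.79 (3.15 to 4.53). Within Prf1-/- lung it was at 54.1 CPM (7 UMIs) in Cck-high cells and 46.9 CPM in Cck-zero cells, a ratio of 1.15 (0.458 to 2.42). Within WT lung the values were 37.0 CPM (3 UMIs) in Cck-high cells and 37.5 CPM in Cck-zero cells, a ratio of 0.987 (0.201 to 2.95). The bone interval overlaps both lung intervals, and the difference between the ratios was not tested. Sample assignments per cell that the submitters describe were not used here, so the unlisted barcodes have no source in these results, and in the pooled contrast Cck level and source cannot be told apart.

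Ctsz gave ratios of Cck-high over Cck-zero cells on the same side of 1 in all 4 sets of barcodes, none of them at 1.5-fold. They were 1.16 (1.02 to 1.31) in Prf1-/- bone, 1.36 (1.13 to 1.63) in Prf1-/- lung and 1.35 in the unlisted barcodes. In WT lung the ratio was 1.25 and its interval held 1 (0.978 to 1.57). Ctsb, lower in the pooled contrast, had ratios of 0.981 (0.758 to 1.26) in Prf1-/- bone, 0.905 (0.660 to 1.21) in Prf1-/- lung, 1.10 (0.760 to 1.53) in WT lung and 0.594 (0.508 to 0.690) in the unlisted barcodes. Gpnmb had ratios of 1.07 (0.938 to 1.21), 0.843 (0.715 to 0.987), 1.13 (0.950 to 1.34) and 0.743 (0.693 to 0.796) in the same order. Atp6v0c differed within Prf1-/- bone, at 1623 CPM in Cck-high cells and 1180 CPM in Cck-zero cells (1.38, 1.23 to 1.53), and had a ratio of 0.935 (0.808 to 1.08) within Prf1-/- lung. Hexa was at 294 and 198 CPM in Cck-high and Cck-zero cells of Prf1-/- bone (1.48, 1.14 to 1.92) and at 355 and 239 CPM in those of Prf1-/- lung (1.49, 1.08 to 2.00). Within Prf1-/- bone the 41 genes summed to 10456 CPM in Cck-high cells and 8889 CPM in Cck-zero cells, a ratio of 1.18 (1.13 to 1.23). Within Prf1-/- lung the sums were 10471 and 10250 CPM (1.02, 0.967 to 1.08).

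Calls of Cck-high over Cck-zero cells within single sources were few and differed between the sets. In Prf1-/- bone 2 of 35 measured genes were higher, Hgsnat and Atp6ap1 (2.15, 1.13 to 4.06), and 0 lower, where 3.96% of all genes were higher and 1.74% lower. In Prf1-/- lung 0 of 36 were higher and 3 lower, Lamp1 (0.665, 0.464 to 0.924), Atp6v1a (0.427, 0.171 to 0.887) and Grn (0.542, 0.269 to 0.977), where 2.65% were higher and 1.41% lower. In WT lung 1 of 38 was higher, Ctsl (1.68, 1.14 to 2.37), and 0 lower, where 2.23% were higher and 1.17% lower. In the unlisted barcodes 2 of 35 were higher, Hgsnat and Gm2a (1.53, 1.14 to 2.02), and 2 lower, Ctsb and Ctsa (0.602, 0.409 to 0.855), where 3.04% were higher and 4.38% lower. The lung sets rest on 38 and 24 Cck-high cells, and the differences between sources were not tested.

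**Figure D5:**
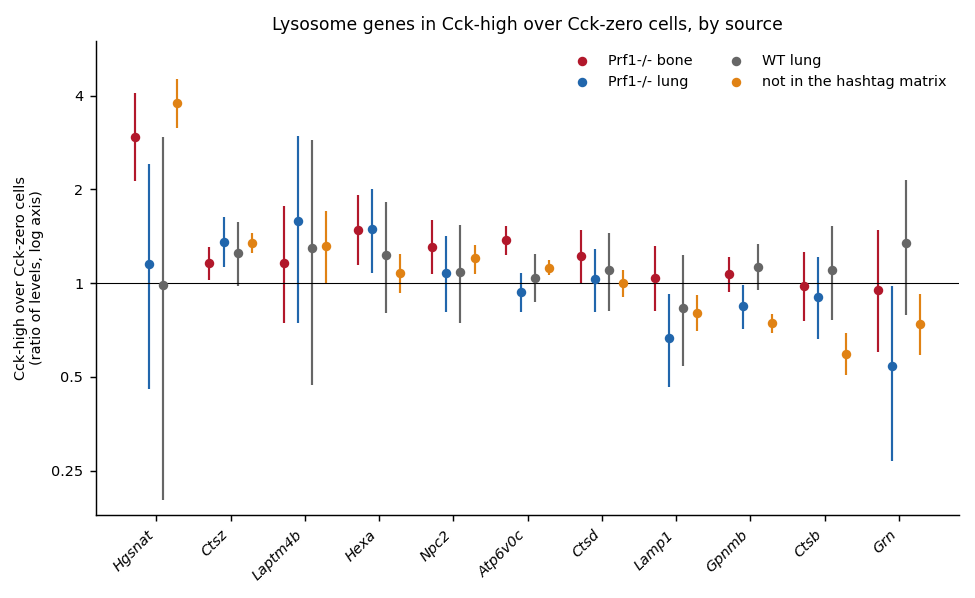
Ratio of levels in Cck-high over Cck-zero cells (vertical log axis) with 95% counting intervals for 11 lysosome genes, within Prf1-/- bone, Prf1-/- lung, WT lung and the barcodes not in the hashtag matrix. Hgsnat stands at 2.94 in bone and 3.79 in the unlisted barcodes but near 1 with wide intervals in both lung groups. The Ctsz ratio is above 1 in all 4, with an interval that holds 1 in WT lung.

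Set beside the promoter windows, the 6 measured genes with GTCACGTG (Arsa, Ctsa, Ctsd, Glb1, Lamp1 and Naglu) had a median log2 ratio of -0.42 for Prf1-/- bone over Prf1-/- lung, with 5 of 6 below 0. The 23 measured genes with a window and without the motif had a median of -0.08, with 15 below 0. In cells with 0 Cck UMIs the medians were -0.55 over 7 genes with the motif and -0.22 over 23 without it. In Prf1-/- lung over WT lung they were 0.08 and -0.06. Summed, the genes with the motif took 918 CPM in Prf1-/- bone and 1195 CPM in Prf1-/- lung. These are descriptions of few genes, and Lamp1 and Ctsd, whose windows are printed above, make up most of the sum. The 2 genes called lower, Tpp1 and Grn, hold no GTCACGTG in their windows.

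Other genes of the lysosomal system were read from 7 lists outside the 41. In Prf1-/- lung over WT lung, 0 genes of the 7 lists were called. In Prf1-/- bone over Prf1-/- lung, all list medians were below 0, from -0.12 for delivery to the lysosome to -0.40 for the melanosome list, beside -0.03 for all genes. The list counts are to be read against the 4.85% of 7695 genes that were lower and the 2.64% that were higher, and several lie near those shares. Of 20 measured other hydrolases 1 was lower, Ctsk, the collagen-cutting cathepsin K, at 9.23 against 20.1 CPM (0.459, 0.229 to 0.841). Ctsk is also on the osteoclast list, which summed to 12.3 CPM in Prf1-/- bone and 20.5 CPM in Prf1-/- lung with Mmp9, Oscar, Ocstamp and Calcr at 0 in both. Of 13 other pump subunits 1 was lower, Atp6v0a1 at 54.6 against 87.0 CPM (0.628, 0.481 to 0.810), and the abundant Atp6v0b was at 695 against 924 CPM (0.752, 0.699 to 0.808). Of 28 delivery genes Vps11 (0.418) and Hps4 (0.466) were lower, both under 10 CPM in bone. Of 20 regulators and nutrient-sensing genes 2 fell. Rragd, a Rag GTPase of the amino acid sensor on the lysosome, was at 16.2 CPM in Prf1-/- bone and 40.4 CPM in Prf1-/- lung (0.400, 0.242 to 0.629), and Flcn, folliculin, a GTPase activator for that Rag protein, at 13.1 and 26.2 CPM (0.499, 0.281 to 0.831). Mitf itself was at 393 and 441 CPM (0.892, 0.808 to 0.983).

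Of 25 autophagy genes Atg9a, which supplies membrane to the growing autophagosome, rose to 25.4 CPM in Prf1-/- bone, against 13.5 CPM in Prf1-/- lung (1.88, 1.19 to 2.90). Atg12, a conjugation protein, fell to 19.2 CPM, against 29.8 CPM (0.645, 0.404 to 0.992). Of 13 melanosome genes 3 fell: Mlana, a melanosome membrane protein, at 1304 against 2104 CPM (0.620, 0.588 to 0.653), and Mlph (0.652) and Myo5a (0.655), which carry melanosomes along actin. Dct, a melanin enzyme, was at 2658 against 3899 CPM (0.682, 0.657 to 0.707) and Pmel, which builds the fibrils inside melanosomes, at 3093 against 3498 CPM (0.884, 0.854 to 0.915). The 2 most abundant autophagy genes, Gabarap and Map1lc3b, both coats of the autophagosome membrane, had ratios of 0.781 (0.713 to 0.854) and 1.14 (1.05 to 1.24). In cells with 0 Cck UMIs 7 of the 13 melanosome genes were lower in bone, among them Dct at 2617 against 3968 CPM (0.659, 0.629 to 0.691), beside 5.29% of all 7682 measured genes and 4 of 36 lysosome genes, and the difference between these lists was not tested. In Cck-high over Cck-zero cells, Atg9a was at 30.5 and 14.5 CPM (a ratio of 2.11) and Fuca1, a fucosidase, at 215 and 139 CPM (1.55, 1.38 to 1.74), both called higher. Gpr143, a receptor of the melanosome membrane, was called higher as well, at 72.8 and 46.9 CPM (1.55, 1.26 to 1.90), and Pmel was at 4440 and 3205 CPM (1.39, 1.35 to 1.42). Rragd (0.504, 0.321 to 0.755), Flcn (0.555, 0.321 to 0.899), Vps26a (0.637, 0.467 to 0.850) and Uvrag (0.637, 0.470 to 0.846) were among those called lower there. Called higher were 1 of 18 other hydrolases, 1 of 25 autophagy genes and 1 of 13 melanosome genes, beside 2.92% of 7703 measured genes. Called lower were 2 of 19 regulators, 1 of 29 delivery genes, 1 of 25 autophagy genes and 1 of 16 membrane proteins, beside 4.26%.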

How the data were processed

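The deposited values are raw UMI counts, 35150895 over 32285 genes and 15961 barcodes, with hashtag counts for 6208 barcodes, of which 4204 are in both matrices. Cell Ranger 6.1.2, Seurat 4.3.0 and mm10 are named in the submitters' processing notes, but the header of the files gives Cell Ranger 6.0.0. No listed barcode has under 503 hashtag counts, and 6270 filtered barcodes carry no source. The ratio rule removes doublets of different hashtags but not those of 1 hashtag; no doublet caller was run and cells were not clustered.

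For each group, UMIs were summed over its cells and scaled to 1000000 (CPM). Ratios carry exact conditional binomial (Clopper-Pearson) 95% intervals, levels exact Poisson ones, and log2 ratios had 1 CPM added, which shrinks those of low genes. Every gene of the table was computed. Python 3.11.15, numpy 2.4.6 and scipy 1.17.1 were used, with R 4.3.3 and Seurat 5.3.0 for HTODemux. The calling step was also run on simulated counts with set ratios. That simulation held counting error only, so it cannot show how spread between cells affects the intervals.

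The members and lists were chosen with earlier results of these data known. Named genes are those called in any comparison and, in each role group, the 3 with the most UMIs (2 in a group of 5 or fewer), with others added after their values were seen. The splits of Cck-high cells by source and of genes by motif were also chosen then. The other lists give counts, called genes and some of the most abundant, and results for 1 list member are not reported here. The 21 alternatives varied hashtag calls, cell filters, totals, thinning and Cck thresholds.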

Additional observations from a re-analysis of the deposited data

How the results depend on the processing

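Hgsnat was called higher in Prf1-/- bone over Prf1-/- lung and in Cck-high over Cck-zero cells under every alternative run, with ratios from 1.98 (cells with 0 Cck UMIs) to 3.44 and from 3.23 to 4.17. Single sources were not among the alternatives for the Cck contrast. Within them Hgsnat was called in Prf1-/- bone (2.94), but not in Prf1-/- lung (1.15, 0.458 to 2.42) or WT lung (0.987, 0.201 to 2.95). Laptm4b (1.59 to 2.46) and Grn (0.564 to 0.647) kept their bone calls under every alternative, and Tpp1 lost its call at a hashtag ratio of 5 (0.726), at 500 (0.670) or 2000 genes (0.880), with other totals (0.671), centring (0.676), thinning (0.691) or without mitotic UMIs (0.704). Cck-high cells alone were not among these alternatives. In them Laptm4b (1.33, 0.644 to 3.02) and Grn (1.07, 0.521 to 2.36) were not called, on few UMIs. Of 200 summary values under alternatives 166 stayed as they were and 34 moved, and the cause was not tested. Except for Cck-zero cells and unlisted barcodes, the share of all genes called under an alternative is not given. Counts that moved there have no background to be read against.

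For Prf1-/- bone over Prf1-/- lung, the number of genes called lower was 4 in Cck-zero cells, without the top cell of each gene and without cells holding macrophage, neutrophil or epithelial UMIs, and 1 with totals that leave out mitochondrial and ribosomal protein genes and Cck, and after centring on the median of all genes; 4 were higher without mitotic UMIs. The ratio of sums was 0.867 in Cck-zero cells, 0.935 at 2000 genes, 0.935 after centring and 0.949 without mitotic UMIs. For Prf1-/- lung over WT lung, 1 gene was lower at 2000 genes, and 1 was higher and 1 lower without mitotic UMIs. There the median was -0.089 and the ratio of sums 0.965 at 2000 genes, and that ratio was 0.987 without mitotic UMIs; the Hgsnat ratio turned to 0.973 at 2000 genes, from 145 and 126 cells.

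For Cck-high over Cck-zero cells, the number higher was 3 at 2000 genes and without mitotic UMIs, and 2 with no level filter, after thinning and in unlisted barcodes. The number lower was 1 at 500 genes, without mitotic UMIs, at 20 Cck UMIs and at 2000 to 5000 UMIs, and 2 after thinning and in unlisted barcodes. The ratio of sums was 1.01 at 500 genes, at 5 Cck UMIs and in unlisted barcodes, and 1.05 at 2000 genes, after centring and in listed barcodes; the median was -0.091 in unlisted barcodes. No paired analysis was possible because each source is 1 group. Depth limits the 6 genes under 10 CPM, and 3 UMIs in Prf1-/- bone correspond to 2.31 CPM.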
